A study of Arabidopsis thaliana with 4 samples.

Results

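This account compares the transcriptome of Arabidopsis seedlings labelled hda6/ldl1/2 with that of seedlings labelled hda6, which asks what the ldl1/2 lesions add when hda6 is already mutated. The difference of each gene was its log2 fold change in hda6/ldl1/2 over WT minus its log2 fold change in hda6 over WT. Genes were kept if the larger group mean of either comparison was at least 1 RPKM (a read count scaled to exon length and library size), which left 19211 of 34262 genes. A gene counted as higher or lower by size alone, at a difference at or beyond 1 or -1. The lowest mean kept was 1.002 RPKM and the highest left out was 0.9994 RPKM.

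The RNA came from 14-day-old seedlings kept at 22 °C under a long-day light cycle, and paired reads of 150 nt were obtained. The genotypes were hda6/ldl1/2, hda6, ldl1/2 and WT, all in the Col-0 ecotype. Only hda6/ldl1/2 and hda6 enter the main difference, and both carry the hda6 lesion. The alleles and the number of plants per sample are not given in the sources used here.

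HDA6 is a histone deacetylase that removes acetyl groups from histone tails and keeps transposons and some genes silent. LDL1 and LDL2 are related to the animal demethylase LSD1, which removes methyl groups from lysine 4 of histone H3. In Arabidopsis both kinds of enzyme are known for holding down the flowering repressor FLC.

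GEO lists 1 sample per genotype, so no test of hda6/ldl1/2 against hda6 was possible, and no spread between labelled replicates could be computed. The deposited means nevertheless fell on exact steps of whole reads from 2 libraries for each mutant, of 49381267 and 43807763 reads for hda6/ldl1/2 and of 47513069 and 47334633 reads for hda6. The reads of each library could be worked out wherever a mutant was higher than WT. Both groups had library values for 3908 of the kept genes, and other genes have a group mean only. Whether these libraries came from separate plants is not given, so their spread may be technical. The error printed with a difference is a standard error, worked back from the p-values in the authors' deposited tables by a normal approximation. It is the largest standard error that those p-values allow under that approximation, and not an outer bound of the difference. It can fall short of the spread between libraries. For the anthocyanin gene DFR it was 0.68, while the hda6/ldl1/2 libraries held 13.3 and 1.94 RPKM. Its median was 0.47 for genes of 1 to 2 RPKM and 0.16 for those of 20 to 100 RPKM. The 2 hda6/ldl1/2 libraries differed from each other at least 2-fold in 137 of 5657 readable genes, and the 2 hda6 libraries in 45 of 6914.

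The targeted genes were examined first. HDA6 (AT5G63110, chromosome 5, 25315506 to 25318347) had 23.4 and 25.2 RPKM in the hda6/ldl1/2 libraries, against 24.7 and 24.4 RPKM in the hda6 libraries. Its difference was 0.06 (error 0.16), and the libraries of both genotypes overlapped. LDL1 (AT1G62830, chromosome 1, 23264486 to 23267221) had group means of 4.60 RPKM in hda6/ldl1/2 and 4.93 RPKM in hda6. LDL2 (AT3G13682, chromosome 3, 4478873 to 4481767) had 1.04 RPKM in hda6/ldl1/2 and 1.46 RPKM in hda6, a difference of -0.41 (error 0.34). The means in ldl1/2 were lower, at 2.87 RPKM for LDL1 and 0.65 RPKM for LDL2, against 4.86 and 1.43 RPKM in WT. In the authors' deposited tables LDL1 had a log2 fold change over WT of 0.05 (FDR 0.9999) in hda6/ldl1/2 and -0.79 (FDR 2.52e-05) in ldl1/2. The samples labelled hda6/ldl1/2 thus did not show the low LDL1 transcript of ldl1/2, and every direction below is for the samples as labelled. LDL3, a further demethylase of this family, had a difference of -0.39, and HDA19, another histone deacetylase, one of -0.14.

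A total of 416 genes were higher in hda6/ldl1/2 than in hda6 (2.17% of the genes kept) and 279 were lower (1.45%), together 3.62%. On the scale of mean RPKM over the nuclear total, which shifts every difference by -0.11, the split was 354 higher and 358 lower. The median difference over all kept genes was 0.01, with its 5th and 95th percentiles at -0.52 and 0.58. As a description, of the 160 higher genes with library values, 151 had both hda6/ldl1/2 libraries above both hda6 libraries, against 27.5% of all kept genes with such values. All 27 lower genes with library values had both hda6/ldl1/2 libraries below both hda6 libraries, against 16.0% of those genes. The same libraries make up the means that chose these genes, so these counts are no support for the choice. Members just inside and outside the size rule had differences of 1.002 and 0.9988 above, and of -1.002 and -0.9998 below.

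**Figure D1:**
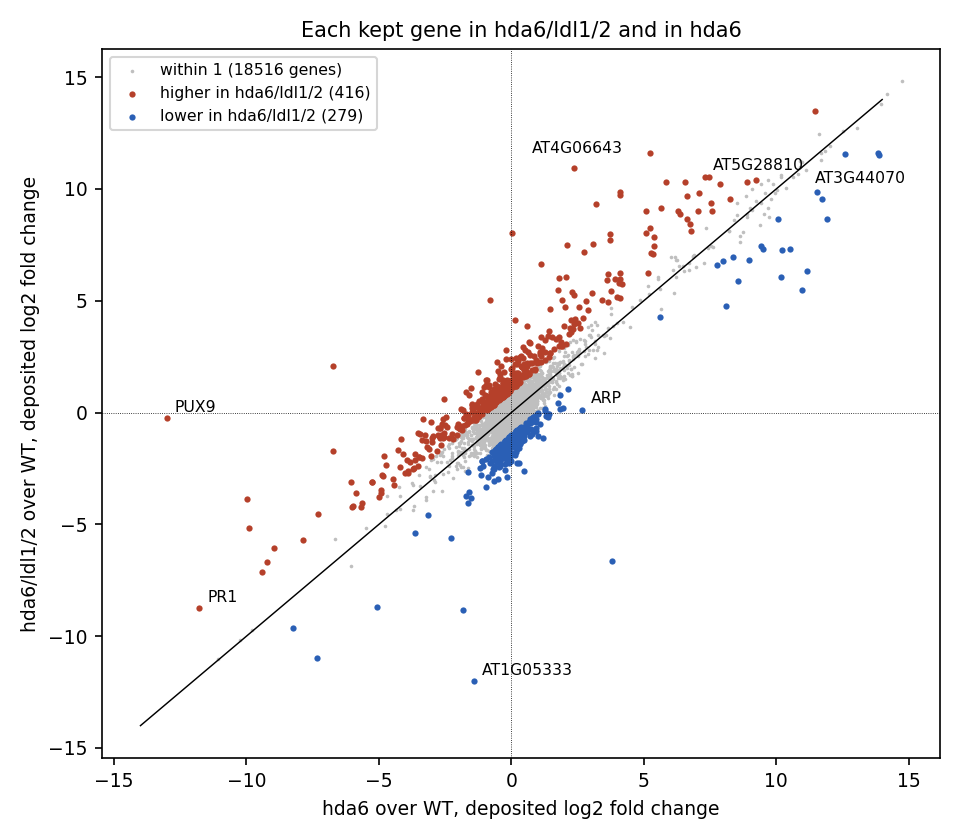
Deposited log2 fold change over WT of each of the 19211 kept genes, in hda6/ldl1/2 (vertical axis) and in hda6 (horizontal axis); genes on the solid line have a difference of 0. The 416 genes higher in hda6/ldl1/2 are red and the 279 lower ones blue; PUX9 lies far left near the WT level of hda6/ldl1/2, and ARP lies below the line near the WT level of hda6/ldl1/2.

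The differing genes were sorted by what they did in hda6. Among the higher genes, 111 passed the size rule over WT in hda6/ldl1/2 and not in hda6, and 99 were past it in hda6 and stood further from WT the same way in hda6/ldl1/2. A further 80 were part of the way back to WT, with median log2 fold changes of -1.86 in hda6/ldl1/2 and -3.52 in hda6 in the authors' deposited tables. Another 44 were back within 0.5 of WT, 10 had crossed to the other side and 72 were past the rule over WT in neither mutant. Among the lower genes, 146 passed the rule in hda6/ldl1/2 and not in hda6, 77 in neither, 23 were part of the way back, 18 further from WT, 11 back within 0.5 and 4 across. Many of the higher genes were therefore already past the rule over WT in hda6, while most of the lower genes were not. The hda6 fold change that sorts these genes is also part of the difference that chose them. An extreme hda6 value can thus both select a gene and place it on the way back to WT, so the split is a description only. The share of all kept genes past the rule in hda6 was not counted.

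The largest single difference was that of PUX9 (AT4G00752, chromosome 4, 317564 to 320935), which encodes a UBX domain protein. Its group mean was 10.05 RPKM in hda6/ldl1/2, under 1 read pair in hda6, 12.2 RPKM in ldl1/2 and 13.0 RPKM in WT. Against a floor of 3 read pairs over the hda6 group it was at least 279-fold higher in hda6/ldl1/2 than in hda6. AT4G00750, a methyltransferase gene on the opposite strand whose annotated end at 317675 overlaps that of PUX9, was chosen after its values were seen. Without stated strand use, reads from the shared stretch cannot be assigned to either gene. AT4G00750 had 15.7 RPKM in hda6/ldl1/2, 5.76 RPKM in hda6, 11.6 RPKM in ldl1/2 and 16.9 RPKM in WT. The next gene on the far side, AT4G00755, had a difference of 0.29. Both PUX9 and AT4G00750 were thus low in hda6 and near WT in hda6/ldl1/2.

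Genes almost silent in WT formed a large share of the higher genes that stood further from WT. Of 144 kept genes with a rebuilt WT mean under 0.1 RPKM, 56 were higher in hda6/ldl1/2 than in hda6 and 20 were lower. Such genes could enter only through expression in hda6/ldl1/2 or hda6, and no count among them bears on genes silent in both. All but 2 of the 144 had library values. Over all 142, both hda6/ldl1/2 libraries were above both hda6 libraries in 71 genes and below them in 43. Over all kept genes with library values these shares were 27.5% and 16.0%. Because the silent genes were kept only through expression in these mutants, their library counts are a description and no support. In all, 127 of the 144 reached 1 RPKM in hda6/ldl1/2, 98 in hda6, 81 in both and 4 in ldl1/2.

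AT5G28810, an Ulp1 protease family gene, had 24.9 and 21.3 RPKM in hda6/ldl1/2 and 3.20 and 1.88 RPKM in hda6. AT2G06845, annotated as beta-galactosidase related, had 9.78 and 10.1 RPKM in hda6/ldl1/2 and 1.19 and 1.28 RPKM in hda6. AT4G06643, an uncharacterized gene, had 8.30 and 4.21 RPKM in hda6/ldl1/2 and a single read in the hda6 libraries, which is at least 77.7-fold higher against a floor of 3 read pairs over the group. In each of these genes the libraries of the genotypes did not overlap. AT2G43865 followed, with 7.44 and 6.25 RPKM in hda6/ldl1/2 and 0.320 and 0.735 RPKM in hda6.

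Among the silent genes that were lower in hda6/ldl1/2, the 4 genes among the 12 lowest differences had 7 RPKM or more in hda6. AT3G44070, a glycosyl hydrolase family 35 gene, had 7.07 and 2.47 RPKM in hda6/ldl1/2 and 24.1 and 23.2 RPKM in hda6. AT2G05642, which encodes an OB-fold protein, had 3.09 and 4.51 RPKM in hda6/ldl1/2 and 20.9 and 20.7 RPKM in hda6. AT3G29080 had 0.590 and 0.887 RPKM in hda6/ldl1/2 and 7.63 and 7.18 RPKM in hda6. In all of these both hda6 libraries were close to each other and well above both hda6/ldl1/2 libraries. AT2G13463 was of the same kind, at 2.30 and 2.66 RPKM in hda6/ldl1/2 and 11.7 RPKM in each hda6 library. The errors of these differences, 3.21 to 3.23, are wide because the deposited p-values compare with a near-zero WT level.

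**Figure D2:**
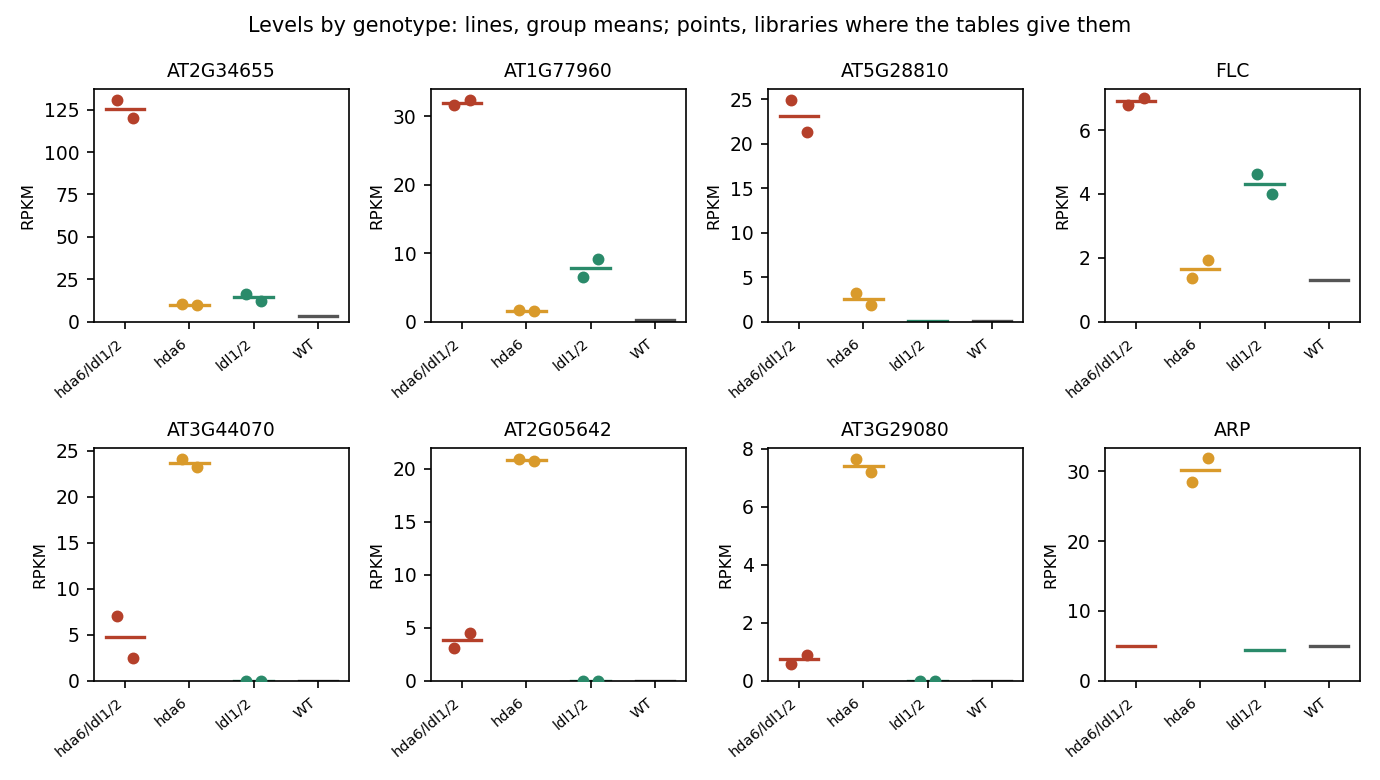
Level in RPKM of 8 genes in hda6/ldl1/2, hda6, ldl1/2 and WT; lines are group means and points the single libraries where the tables give them. AT2G34655, AT1G77960, AT5G28810 and FLC (top) are highest in hda6/ldl1/2, while AT3G44070, AT2G05642, AT3G29080 and ARP (bottom) are highest in hda6.

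A further group was low in WT and had a higher mean in each mutant. AT2G34655, an uncharacterized gene next to the auxin kinase gene PID, had 131 and 120 RPKM in hda6/ldl1/2, 10.4 and 9.71 RPKM in hda6, 16.3 and 12.3 RPKM in ldl1/2 and a mean of 3.09 RPKM in WT. Its difference was 3.72 (error 0.69). PID itself, a kinase that directs auxin carriers, had a difference of -0.22. AT1G77960, described as repressor ROX1-like, had 31.5 and 32.3 RPKM in hda6/ldl1/2, 1.63 and 1.53 RPKM in hda6, a mean of 7.78 RPKM in ldl1/2 and 0.24 RPKM in WT. AT5G67120 and AT1G35183, both RING finger genes, had hda6/ldl1/2 means of 6.73 and 7.09 RPKM, hda6 means of 0.15 and 0.40 RPKM, and ldl1/2 means of 6.56 and 7.23 RPKM. Their WT means were 0.07 and 0.12 RPKM. The hda6 mean of AT5G67120 rested on 6 read pairs, with an FDR of 0.588 over WT in the authors' deposited table, so a rise in hda6 is not shown for it. For these RING finger genes the level in hda6/ldl1/2 was that of ldl1/2, whereas AT2G34655 and AT1G77960 were above both other mutants.

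Because WT cancels out of the difference, ldl1/2 over WT shares no sample with it, and the same change of genotype can be set side by side in both backgrounds. In ldl1/2, 344 of the 19211 genes were higher than in WT (1.79%) and 320 were lower (1.67%). Of the 416 genes higher in hda6/ldl1/2 than in hda6, 158 were also higher in ldl1/2 than in WT, which is 38.0% of the first list and 45.9% of the second. Of the 279 lower genes, 64 were also lower in ldl1/2, which is 22.9% of the lower genes. Opposite directions were seen in 21 genes that were higher in hda6/ldl1/2 and lower in ldl1/2, and in 5 of the reverse kind. Genes higher in ldl1/2 had a median difference of 0.88, with 83.1% above 0, and genes lower in ldl1/2 a median of -0.32, with 34.1% above 0. The same figures over all kept genes were 0.01 and 52.1%.

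Beside the RING finger genes and AT1G77960, the genes highest in both were AT2G05655, HMGB11, which encodes a high mobility group DNA-binding protein, and SDI1. HMGB11 had 7.56 and 5.98 RPKM in hda6/ldl1/2 and 1.01 and 1.12 RPKM in hda6, but only 0.125 and 0 RPKM in the ldl1/2 libraries and 0.008 RPKM in WT. Its place among genes higher in ldl1/2 thus rests on a few reads of a single library, with an FDR of 0.318 in the authors' deposited table. Genes lowest in both were AT4G33720, a cysteine-rich secretory (CAP) family gene, AT3G05160, a transporter of the major facilitator superfamily, PUMP4, a mitochondrial dicarboxylate carrier, HSPRO2, ZAT10 and ERF018. AT4G33720 had a mean of 0.69 RPKM in hda6/ldl1/2, 7.17 RPKM in hda6, 6.13 RPKM in ldl1/2 and 36.6 RPKM in WT. AT3G05160 had means of 4.95 RPKM in hda6/ldl1/2, 23.1 RPKM in hda6, 5.62 RPKM in ldl1/2 and 24.5 RPKM in WT. For AT3G05160 and PUMP4 the hda6 level was close to WT and the hda6/ldl1/2 level close to ldl1/2.

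**Figure D3:**
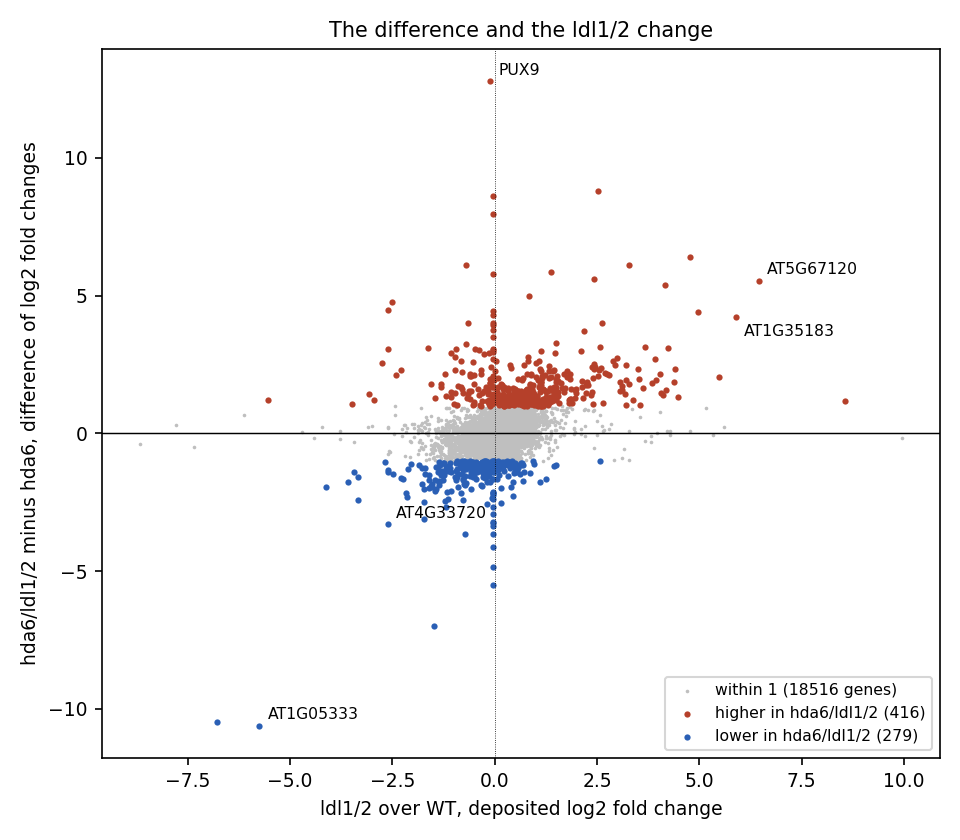
Difference between hda6/ldl1/2 and hda6 (vertical axis, log2) against the deposited log2 fold change of ldl1/2 over WT (horizontal axis) for the 19211 kept genes; the column of points at -0.04 holds genes without reads in ldl1/2. The 158 genes higher in both lie upper right, the 64 lower in both lower left, and PUX9 stands alone at the top near 0 on the horizontal axis.

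The lists fixed for this comparison held 339 genes in 29 lists, of which 297 were kept, 31 were higher and 17 were lower. The lists were chosen with earlier results of these data known, so their counts are a description and no support. Counts in each list below stand beside 2.17% higher and 1.45% lower over all kept genes. The list with the lowest median was the rapid stress response, made of transcription factors and calcium sensors that are known to be induced within minutes of wounding, cold or touch. Of 11 genes 10 were kept, 7 were lower, none was higher and all 10 were below 0, with a median difference of -1.71 against 0.01 over all genes. ZAT10, a zinc finger repressor, had means of 4.05 RPKM in hda6/ldl1/2, 24.0 RPKM in hda6, 10.9 RPKM in ldl1/2 and 35.1 RPKM in WT, a difference of -2.49 (error 0.38). ERF6, an ethylene response factor, had 2.26 RPKM in hda6/ldl1/2 and 9.48 RPKM in hda6. ZAT12 had 2.30 RPKM in hda6/ldl1/2 and 8.07 RPKM in hda6. The other members past the rule were the calmodulin-like gene CML37 (-2.01), ERF5 (-1.88), ERF104 (-1.69) and the zinc finger gene SZF1 (-1.24), while WRKY40 (-0.86), MYB15 (-0.78) and ERF11 (-0.50) were not past it. In ldl1/2, 8 of the 10 were also lower than in WT. No library values exist for this list, since its genes were highest in WT.

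The deadenylase gene CAF1-9, a stress-induced gene among the 12 lowest differences, was at 6.64 RPKM in hda6/ldl1/2 and 30.4 RPKM in hda6. ICL, which encodes isocitrate lyase of the glyoxylate cycle, had 0.90 RPKM in hda6/ldl1/2 and 4.94 RPKM in hda6. AT2G05510, a glycine-rich protein gene, had 2.26 RPKM in hda6/ldl1/2 and 11.6 RPKM in hda6, but 48.5 RPKM in ldl1/2 and 34.5 RPKM in WT. This last gene was thus low where the hda6 lesion is present and not in ldl1/2.

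Of 13 sulfur limitation genes, which plants raise when sulfate is short, 12 were kept, 5 were higher, none was lower and all 12 were above 0, with a median of 0.60. SDI1, which represses glucosinolate synthesis, had 79.1 and 24.7 RPKM in hda6/ldl1/2, against means of 8.63 RPKM in hda6, 226 RPKM in ldl1/2 and 29.4 RPKM in WT. LSU1 had 82.9 and 35.7 RPKM in hda6/ldl1/2, against 11.9 RPKM in hda6, 230 RPKM in ldl1/2 and 37.2 RPKM in WT. GGCT2;1, which recycles glutathione, had 61.9 and 27.9 RPKM in hda6/ldl1/2 and 9.16 RPKM in hda6. The means of these genes were below WT in hda6 and above it in ldl1/2. For GGCT2;1 the hda6 log2 fold change was -0.49 (FDR 0.145) in the authors' deposited table, so a fall in hda6 is not shown for it. For each of them the 2 hda6/ldl1/2 libraries differed by more than 2-fold, both staying above the hda6 mean. BGLU28 (1.94), a thioglucosidase, and LSU2 (1.46) were also past the rule. The sulfate-assimilation reductases APR1 (0.46), APR2 (0.24) and APR3 (0.65) were above 0 and not past it. Aliphatic glucosinolate genes, which make sulfur-rich defence compounds, had a median of 0.15, with none of 13 past the rule. In ldl1/2 over WT 11 of the 13 were lower, with a median of -1.69 in the authors' deposited table.

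Promoters of the gene lowest in the stress list and of the 3 highest sulfur genes are shown because members of these lists lie together on the same side of 0. They are the 250 bases before the annotated gene start on TAIR10.1 (RefSeq), 5′ to 3′ on the gene's strand. Capitals mark CCGAC, the core of the cold and drought response element, in ZAT10 and GAGAC, the core of a sulfur response element, in the others, both read on either strand.
ZAT10, chr1:9649324-9649573, minus strand: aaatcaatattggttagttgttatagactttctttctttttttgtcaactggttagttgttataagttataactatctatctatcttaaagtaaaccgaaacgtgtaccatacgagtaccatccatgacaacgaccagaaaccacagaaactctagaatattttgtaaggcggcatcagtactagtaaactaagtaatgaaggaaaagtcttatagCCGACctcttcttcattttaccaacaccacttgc
SDI1, chr5:19807854-19808103, minus strand: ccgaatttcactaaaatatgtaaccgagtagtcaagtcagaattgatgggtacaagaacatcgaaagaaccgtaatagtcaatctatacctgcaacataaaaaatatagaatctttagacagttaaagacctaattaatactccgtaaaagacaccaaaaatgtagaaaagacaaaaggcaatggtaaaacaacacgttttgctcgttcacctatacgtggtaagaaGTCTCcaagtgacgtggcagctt
LSU1, chr3:18375941-18376190, minus strand: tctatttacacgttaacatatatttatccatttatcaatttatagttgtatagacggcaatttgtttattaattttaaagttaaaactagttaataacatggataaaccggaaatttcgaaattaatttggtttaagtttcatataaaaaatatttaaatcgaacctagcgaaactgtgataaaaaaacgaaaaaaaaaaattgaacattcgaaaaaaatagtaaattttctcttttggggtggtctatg
GGCT2;1, chr5:9164885-9165134, minus strand: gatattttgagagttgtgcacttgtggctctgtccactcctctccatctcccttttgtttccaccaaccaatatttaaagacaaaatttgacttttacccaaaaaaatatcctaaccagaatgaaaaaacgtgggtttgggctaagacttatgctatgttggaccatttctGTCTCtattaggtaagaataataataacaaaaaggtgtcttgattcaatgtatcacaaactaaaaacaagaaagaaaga
ZAT10 held 1 CCGAC, starting 34 bases before the gene start. SDI1 and GGCT2;1 held 1 GAGAC each, starting 23 and 79 bases before it, and LSU1 held none in this window. CCGAC occurred in 3 of the 10 stress promoters, against 12.9% of the 19163 kept nuclear genes. Of the 7 motifs searched on both strands, CGCGTT, the core of the rapid stress response element, occurred in 0 of the 10, against 2.74% of all. The W-box (TTGACC or TTGACT) occurred in 3 of the 10, against 28.2% of all. The motif GCCGCC was found in 2 of the 10 stress promoters, against 1.96% of all. ZAT10 was among these 2, with its match on the other strand and left in lower case above. This larger share rests on 2 promoters and was not tested. GAGAC occurred in 3 of the 12 sulfur promoters, or 25.0%, against 25.0% of those genes, so it was as common there as elsewhere.

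The salicylic acid and immune list lay below WT in both mutants, with median log2 fold changes of -1.21 in hda6/ldl1/2 and -1.63 in hda6 in the authors' deposited tables. All 26 were kept, 7 were higher, none was lower, and the median was 0.24. PBS3, an enzyme of salicylic acid synthesis, had means of 4.49 RPKM in hda6/ldl1/2, 0.78 RPKM in hda6, 6.59 RPKM in ldl1/2 and 9.25 RPKM in WT, a difference of 2.60 (error 0.47). WRKY38, a WRKY transcription factor, had 0.63 RPKM in hda6/ldl1/2 and 0.08 RPKM in hda6. The glucanase PR2 had 4.40 RPKM in hda6/ldl1/2 and 1.82 RPKM in hda6, against 57.5 RPKM in WT. PR1, the usual marker of salicylic acid signalling, had about 9 read pairs in hda6/ldl1/2 and 1 in hda6, a ratio of 7.85 with an exact 95% interval of 1.27 to 402 that covers counting error only. PR1 was therefore very low in both, against 96.9 RPKM in WT. The camalexin gene CYP71A13 rested on 6 and 1 read pairs, with an interval of 0.741 to 281 that includes 1. The regulators SARD1 (1.17) and NIMIN1 (1.26) completed the list past the rule. ICS1 (-0.06), the main salicylic acid synthase, FMO1 (0.00) and EDS1 (-0.05) had differences close to 0.

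Some genes were low in hda6 and back at the WT level in hda6/ldl1/2. RFS2, a raffinose synthase family gene, had 49.0 RPKM in hda6/ldl1/2, 10.4 RPKM in hda6 and 64.5 RPKM in WT. LLP, a legume lectin gene, had 42.6 and 8.56 RPKM in the hda6/ldl1/2 libraries, against 6.34 RPKM in hda6 and 24.6 RPKM in WT, so the mean near WT combined a library above it and a library below it. AT5G42530 had 625 RPKM in hda6/ldl1/2, 225 RPKM in hda6 and 802 RPKM in WT. AT5G44568 (2.63) and AT1G24145 (1.54) were of the same kind. HIPP02, a heavy-metal-associated protein gene, stayed low, with 0.66 RPKM in hda6/ldl1/2, 0.09 RPKM in hda6 (about 3 read pairs) and 6.27 RPKM in WT, a ratio with an exact interval of 1.90 to 34.0.

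In the other direction, ARP (AT2G41460, chromosome 2, 17285470 to 17289023), which encodes a DNA repair endonuclease, had a mean of 4.91 RPKM in hda6/ldl1/2, 28.4 and 31.9 RPKM in the hda6 libraries, and 4.91 RPKM in WT. Its difference was -2.54 (error 0.35), and its high level was seen in hda6 alone of the 4 genotypes. Some iron deficiency genes, which root cells use to take up iron, were also above WT in hda6. Of 14 kept, 4 were lower, none was higher, and the median was -0.30. BHLH39, a regulator of iron uptake, had 1.97 RPKM in hda6/ldl1/2, 6.58 and 5.76 RPKM in the hda6 libraries, and 2.50 RPKM in WT. The iron transporter IRT1 had 5.04 RPKM in hda6/ldl1/2, 10.8 and 11.7 RPKM in the hda6 libraries and 5.84 RPKM in WT. BHLH100 (-1.45) and BHLH38 (-1.33) were also past the rule, while FIT (-0.11), the partner of these factors, was not. The F-box gene AT1G24881, also back at WT, had 7.09 RPKM in hda6/ldl1/2 and 11.5 and 22.2 RPKM in hda6. The iron storage ferritins FER1, FER3 and FER4 had differences of -0.06, 0.20 and 0.39.

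Of 12 root marker genes 11 were kept, 4 were lower, none was higher and all 11 were below 0, with a median of -0.56. Among those past the rule was CASP1, a membrane protein that positions the Casparian strip of the root endodermis. CASP1 had 8.21 RPKM in hda6/ldl1/2, 19.2 and 21.9 RPKM in hda6, 18.3 RPKM in ldl1/2 and 20.4 RPKM in WT. The endodermis regulators SHR (-0.23) and SCR (-0.02) and the root hair gene COBL9 (-0.94) were not past it. The summed level of the 11 was 38.4 RPKM in hda6/ldl1/2, 64.3 RPKM in hda6, 62.7 RPKM in ldl1/2 and 66.0 RPKM in WT. In whole seedlings, fewer root cells and less RNA per root cell cannot be told apart, and the part of root content in the iron and other root-expressed genes was not tested. In the shoot, 23 nuclear photosynthesis genes had a median of 0.13 and none was past the rule.

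**Figure D4:**
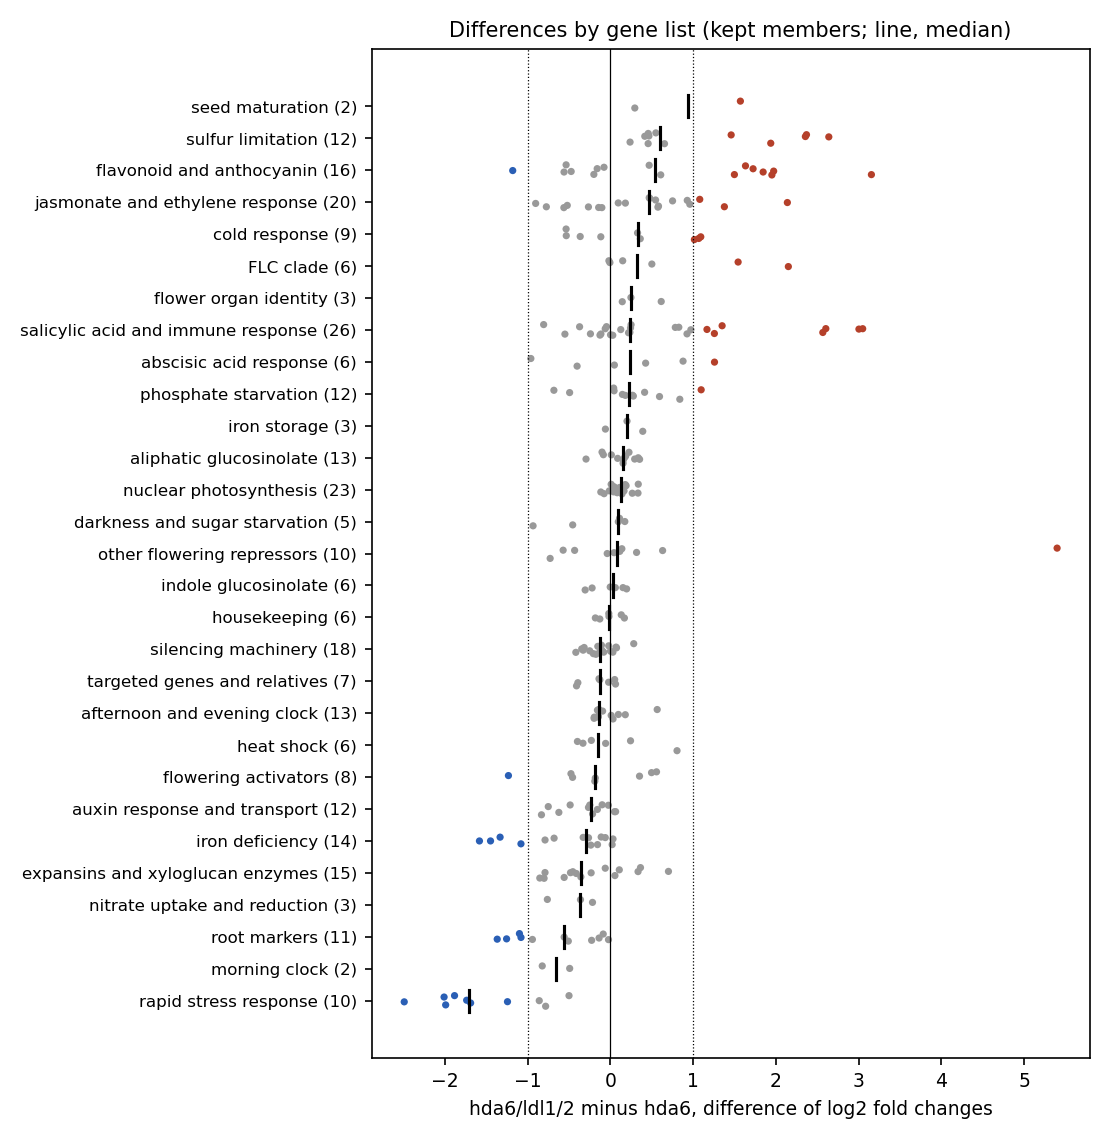
Difference between hda6/ldl1/2 and hda6 (log2) of each kept member of the 29 lists, with the number of kept members in brackets and the list median as a line; dotted lines mark 1 and -1. The rapid stress response (median -1.71) and root markers (-0.56) lie left of 0, and sulfur limitation (0.60) lies right of 0 in every member.

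The flavonoid and anthocyanin list was split. Of 18 genes 16 were kept, 7 were higher and 1 was lower. The higher ones were the late anthocyanin genes DFR, LDOX, UGT79B1, 5MAT and GSTF12 and the MYB activators PAP1 and PAP2. The lower one was MYB12 (-1.18), an activator of flavonol synthesis, and the early enzyme CHS had a difference of -0.54. DFR, the first enzyme of the anthocyanin branch, had 13.3 and 1.94 RPKM in hda6/ldl1/2, 0.914 and 3.502 RPKM in hda6, a mean of 11.6 RPKM in ldl1/2 and 0.79 RPKM in WT. LDOX had 10.3 and 2.43 RPKM in hda6/ldl1/2 and 0.782 and 3.52 RPKM in hda6. The libraries of both genotypes thus overlapped for DFR and LDOX, as they did for UGT79B1. PAP2 had 3.52 and 1.18 RPKM in hda6/ldl1/2 and a mean of 0.28 RPKM in hda6. Of the 9 genes of the list with hda6/ldl1/2 library values, 8 were at least 2-fold higher in the first library than in the second, against 1.34% of all such genes. Without the first library the difference from the hda6 mean, on the RPKM scale, was -0.19 for DFR, 0.18 for LDOX, 0.32 for PAP1 and 2.102 for PAP2.

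Jasmonate and ethylene genes had 3 of 20 higher and none lower, with a median of 0.47. The vegetative storage protein gene VSP1 had 83.5 and 18.7 RPKM in hda6/ldl1/2 and a mean of 20.5 RPKM in hda6. VSP2 had 295 and 117 RPKM in hda6/ldl1/2 and 102 RPKM in hda6. Both storage protein genes were again higher in the first hda6/ldl1/2 library, and VSP1 lay below the hda6 mean in the second. TAT3, a tyrosine aminotransferase, had 1.11 RPKM in hda6/ldl1/2 and 0.27 RPKM in hda6, against 63.7 RPKM in WT. The jasmonate synthesis genes LOX2 (0.93) and AOC1 (0.96) came close to the rule and the defensin PDF1.2A stood at -0.90.

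**Figure D5:**
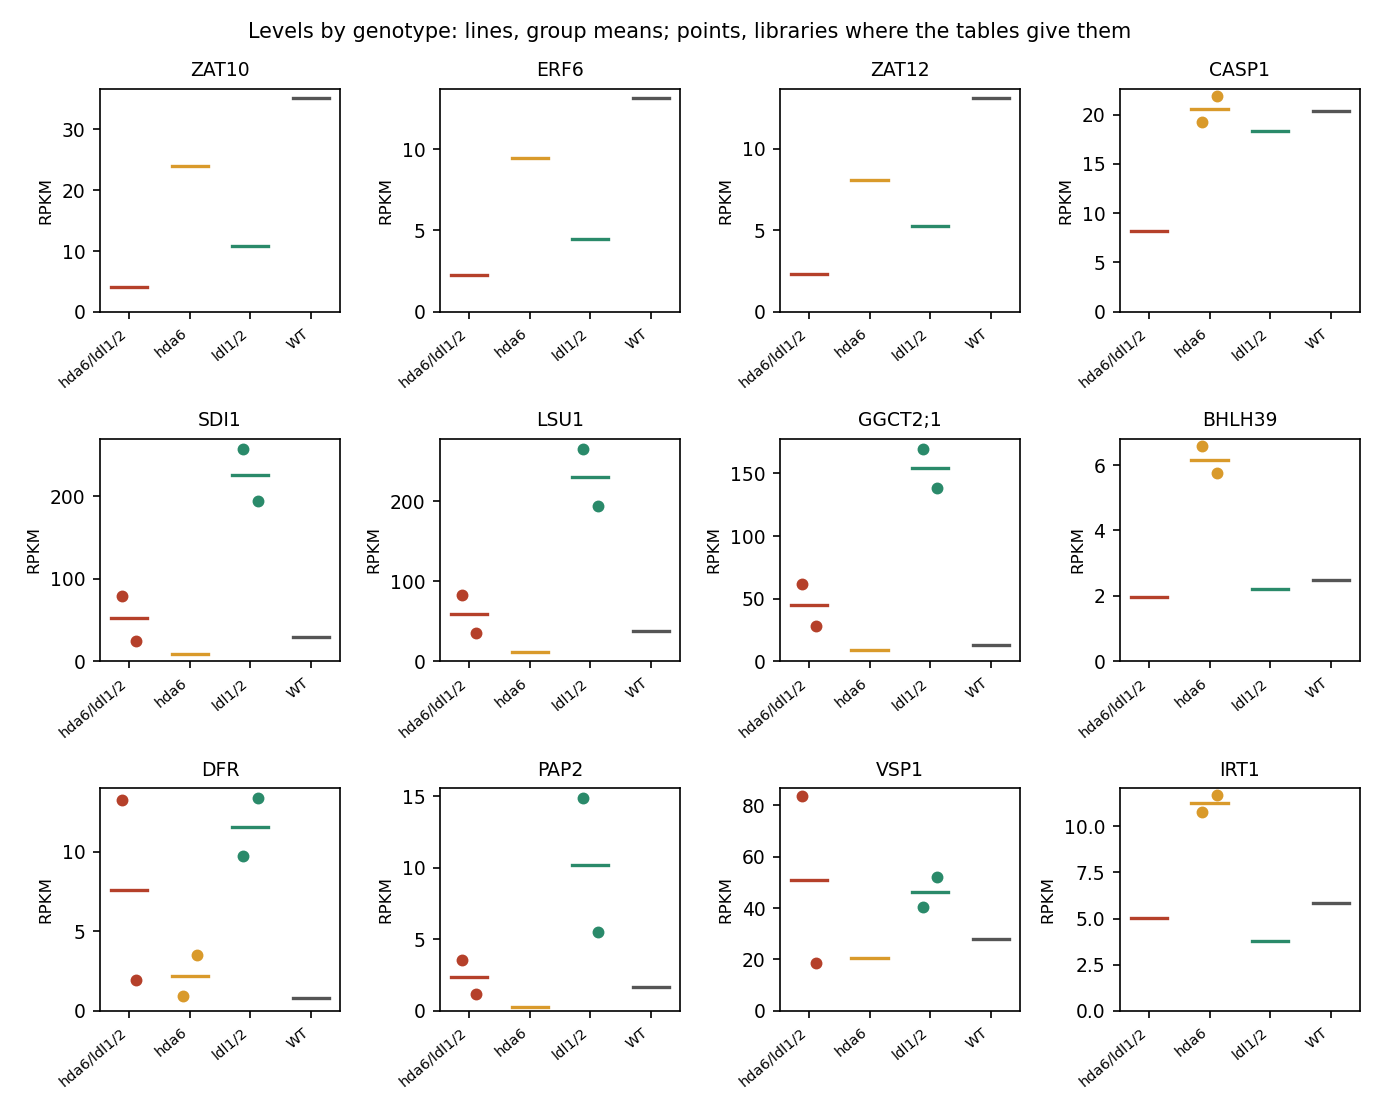
Level in RPKM of 12 list members in hda6/ldl1/2, hda6, ldl1/2 and WT; lines are group means and points the single libraries where the tables give them. ZAT10, ERF6, ZAT12 and CASP1 are lowest in hda6/ldl1/2, SDI1, LSU1 and GGCT2;1 lie between hda6 and ldl1/2, and the 2 hda6/ldl1/2 libraries lie far apart for DFR and VSP1.

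Flowering regulators differed at a few genes. FLC (AT5G10140, chromosome 5, 3173382 to 3179448), the MADS-box repressor of flowering, had 6.80 and 7.003 RPKM in hda6/ldl1/2, 1.36 and 1.92 RPKM in hda6, 4.61 and 4.005 RPKM in ldl1/2 and a mean of 1.31 RPKM in WT. Its difference was 2.15 (error 0.40), and its libraries in hda6/ldl1/2 and hda6 did not overlap. MAF5, a close relative of FLC, had 22.6 and 20.3 RPKM in hda6/ldl1/2, 7.55 and 7.97 RPKM in hda6, 10.5 RPKM in ldl1/2 and 1.24 RPKM in WT. FLC, MAF5 and MAF4 were each highest in hda6/ldl1/2, but MAF4 (0.50) was not past the rule. MAF4 had means of 8.70 RPKM in hda6/ldl1/2, 6.48 RPKM in hda6, 3.20 RPKM in ldl1/2 and 1.02 RPKM in WT. MAF2 (0.15), MAF3 (-0.01) and FLM (-0.02), the other members of this clade, were not past the rule either. FWA, a repressor that DNA methylation keeps silent in WT, had 1.39 and 0.758 RPKM in hda6/ldl1/2 and 0.051 and 0 RPKM in hda6. The ratio for FWA, on 123 and 3 read pairs, was 41.9 with an exact interval of 13.9 to 205. FT, the mobile flowering signal that FLC holds down, had 1.96 RPKM in hda6/ldl1/2, 5.44 and 4.29 RPKM in hda6, 1.33 RPKM in ldl1/2 and 3.38 RPKM in WT, a difference of -1.23 (error 0.50). SOC1 (-0.48) and CO (-0.19), further activators, and the repressor SVP (0.04) were not past the rule. The seed regulator FUS3 had 1.41 and 1.18 RPKM in hda6/ldl1/2 and 0.328 and 0.593 RPKM in hda6, and of 12 seed maturation genes only FUS3 and AGL15 (0.29) were kept.

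Cold response genes had 3 of 9 higher and none lower, all of them protective proteins. KIN2 had 479 and 534 RPKM in hda6/ldl1/2 and 196 and 307 RPKM in hda6. COR15B had 111 and 116 RPKM in hda6/ldl1/2 and 43.6 and 71.1 RPKM in hda6. COR15A had 37.1 and 65.2 RPKM in hda6/ldl1/2 and 16.4 and 37.6 RPKM in hda6, so its libraries overlapped while those of KIN2 and COR15B did not. Of the other members RD29A (0.36) and KIN1 (0.33) were above 0 and COR47 (-0.53) and the regulator CBF3 (-0.54) below it, and none of them was past the rule. Among abscisic acid genes RD29B (1.26) was past the rule, and among phosphate starvation genes IPS1 (1.096), on 16 and 8 read pairs.

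Several lists held no gene past the rule. They were the clock lists, with TOC1 at -0.15, GI at -0.14 and ELF4 at 0.56, the silencing machinery, with MET1 at -0.33 and ROS1 at 0.28, the auxin list (median -0.23), expansins and xyloglucan enzymes (-0.36), heat shock (-0.15), indole glucosinolates (0.03), nitrate uptake and reduction (-0.36), flower organ identity (0.25), darkness and sugar starvation (0.09) and housekeeping genes (-0.02). The medians of indole glucosinolates and of darkness and starvation genes turn negative on the scale of the nuclear total, at -0.08 and -0.01. The flower identity genes PI (0.14), SEP1 (0.61) and SEP3 (0.25) were the members kept, and the floral regulators LFY and AP1 were both under 0.4 RPKM in hda6/ldl1/2 and hda6.

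Among annotated non-coding genes, 10 of 149 lncRNA genes kept were higher (6.71%) and 7 were lower (4.70%), of 3466 in the tables. Over all kept genes these shares were 2.17% and 1.45%. AT1G05333 (chromosome 1, 6131064 to 6135345) was under 1 read pair in hda6/ldl1/2 and at 1.504 RPKM in hda6, at least 10.8-fold lower against a floor of 3 read pairs over the hda6/ldl1/2 group, and it was at 0.08 RPKM in ldl1/2 and 4.18 RPKM in WT. AT1G13448 had 3.35 and 4.90 RPKM in hda6/ldl1/2 and a mean of 1.26 RPKM in hda6. AT5G64572 had no reads and 5.03 RPKM in the hda6/ldl1/2 libraries and 0.45 RPKM in hda6, so its difference of 2.61 came from a single library. AT1G07337, AT1G07327, AT5G04675, AT5G08820 and AT5G06235 had differences of -3.35, -2.14, 2.97, 2.30 and -1.68 at means of at most 4.41 RPKM. AT5G08820 had 1.84 and 4.82 RPKM in hda6/ldl1/2 and 1.42 and 0 RPKM in hda6, so its difference depends on which library is taken. The counting does not state strand use in the sources used here, so reads of a gene and of an antisense partner cannot be told apart.

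Organelle genes were apart from the rest. Of 158 plastid genes 35 were kept, 15 were higher, none was lower, and the median difference was 0.74, while nuclear and mitochondrial genes without them had 2.09% higher. PSBA, a photosystem II core protein, had 34.4 and 130 RPKM in hda6/ldl1/2 and 35.4 and 30.9 RPKM in hda6, so its libraries overlapped. PSAB, of photosystem I, overlapped too, at 4.80 and 13.0 RPKM in hda6/ldl1/2 and 4.94 and 4.25 RPKM in hda6. PSBC was likewise higher in the second hda6/ldl1/2 library, at 6.64 and 19.2 RPKM. By contrast, RPL14 had 6.91 and 6.62 RPKM in hda6/ldl1/2 and 3.76 and 3.32 RPKM in hda6. Of the 26 plastid genes with library values, 11 had both hda6/ldl1/2 libraries above both hda6 libraries, against 27.5% of all kept genes with such values. Of 164 mitochondrial genes 12 were kept, 7 were higher and none was lower, with a median of 1.12 and no library values. Their median log2 fold change over WT was 0.43 in hda6/ldl1/2 and -0.57 in hda6 in the authors' deposited tables.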

How the data were processed

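GEO lists 1 sample per genotype. The authors deposited 1 table per mutant against WT, each with the larger group mean, which is in RPKM as read from the values, a p-value with its FDR and a log2 fold change for 34262 genes. Bowtie and TAIR10 are named per the submitters' processing notes, and no source used here names the test behind the deposited p-values. The genes were matched by position to TAIR10.1, 33349 of them.

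Differences are deposited log2 fold changes of hda6/ldl1/2 minus those of hda6. Means not shown directly were rebuilt from the fold change and a constant offset. The means decoded to whole reads of single libraries for 98.4% of hda6/ldl1/2 and 98.7% of hda6 values. The ldl1/2 libraries held 40208609 and 42608931 reads and the WT libraries 48585246 to 51621544 reads, and intervals and floors cover counting error only. RPKM ratios lie 0.07 below the deposited differences (log2). The error treats the fold changes as independent though they share WT. This makes it an upper limit of the standard error that the p-values imply, not of the spread between libraries.

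Named genes were HDA6, LDL1 and LDL2, the 12 highest and 12 lowest differences from 5 RPKM, the 6 per direction back at WT, the 6 per direction shared with ldl1/2, up to 5 members of each list and 8 lncRNA genes. Other list members are named to show values that did not pass. A gene that this rule names is not reported here. The members and lists were chosen with earlier results of these data known. The steps used Python 3.11.15, pandas 2.3.3, numpy 2.4.6, SciPy 1.17.1 and matplotlib 3.10.9 and were tested on simulated data.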

Additional observations from a re-analysis of the deposited data

Results flagged for a closer look

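Some genes lay in opposite directions in the 2 backgrounds, higher in hda6/ldl1/2 than in hda6 and lower in ldl1/2 than in WT, among genes whose larger group mean reached 5 RPKM. The difference between the backgrounds was not tested. The differences between hda6/ldl1/2 and hda6 were 1.28 for DIN11, 1.35 for PR2, 1.43 for NATA1, 1.52 for AGP5, 1.80 for AOX3, 2.14 for TAT3, 2.15 for MSRB8, 2.29 for CAD8, 2.57 for CYP71A13, 2.93 for PCR1 and 3.08 for AT2G06845. In the authors' deposited table the log2 fold changes of ldl1/2 over WT ran from -1.06 for AGP5 and PCR1 to -3.06 for NATA1. Their FDRs there were 0.333 for PCR1, 0.130 for PR2 and 0.101 for AGP5, so a fall in ldl1/2 is not shown for these genes. All of the listed genes except DIN11 and AT2G06845 were below WT in hda6/ldl1/2 and in hda6. AT2G06845 was under 0.01 RPKM in both ldl1/2 and WT, too low for a fold change. CYP71A13 rested on 6 read pairs in hda6/ldl1/2 and 1 in hda6, and CAD8 had a mean of only 0.024 RPKM in hda6.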

How the results depend on the processing

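With a mean of at least 5 RPKM, 154 genes were higher and 122 lower. Then 59 were higher and 34 lower in both backgrounds. Among the higher genes 41 were past the size rule in hda6/ldl1/2 and not in hda6, 32 further from WT, 17 back and 36 part of the way back, and among the lower genes 70, 6, 5 and 9. With at least 1 RPKM in both tables, 97 genes were higher in both backgrounds, 65 higher genes were past the rule in hda6/ldl1/2 and not in hda6 and 41 further from WT, and 7 lower genes were back and 10 part of the way. On log2(value + 1), 156 genes were higher and 129 lower, 16 list genes were higher, 49 and 31 were higher and lower in both backgrounds, 17, 16 and 16 higher genes were further, back and part of the way back, and 74, 5 and 10 lower genes were past the rule in hda6/ldl1/2 and not in hda6, further and part of the way. Without an expression filter 1881 were higher and 1194 lower, and at a size of 2, 115 and 39. The other 82 counts stayed within 1.5 times. Of 973 values of 173 named genes, 945 moved by less than the error of the difference and 28 by more, all 28 on log2(value + 1). No difference past the size rule could change sign under these settings, so the lack of reversals is no support.

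Chosen after seeing the data, a difference of at least 2 times its error left 293 higher and 217 lower. A library could be left out only for genes with library values of that mutant, where the mutant was above WT. Leaving out each hda6/ldl1/2 library gave 304 to 305 higher and 38 to 42 lower among such genes, against 294 and 29 with both. Most of the 279 lower genes, with the whole rapid stress list, could not be checked in this way. Among genes with hda6 library values, leaving out each hda6 library gave 169 to 174 higher and 146 to 172 lower, against 159 and 159. No paired analysis was possible because GEO lists 1 sample per genotype. Genes of few reads have wide errors, and no spread between labelled replicates was available.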
